A study of Mus musculus with 6 samples.

Results

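Histones are the proteins around which DNA is wound, and the mRNA levels of the mouse histone genes were compared between 2 populations of cancer-associated fibroblasts (CAFs). The members were chosen by name and biotype: protein-coding genes whose symbol begins with Hist1h to Hist4h, H2af or H1f, or is H3f3a or H3f3b. The rule gave 83 genes of the 49548 in the deposited table, of which 21960 were protein-coding. Of these, 68 lie in the histone clusters Hist1 to Hist4 and 15 code for histone variants outside the naming scheme of the clusters.

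All 6 libraries came from colon tumors of Col6a1-cre, Rosa26-mTmG mice on the C57/BL6 strain that had undergone AOM/DSS, a carcinogen followed by a colitis-inducing agent, so no untreated or tumor-free sample enters any comparison here. In these mice Cre under Col6a1 regulatory sequence turns a membrane Tomato reporter into GFP, and the Cre marks mainly PDGFRα-high fibroblasts and perivascular cells. Cells negative for CD45, EpCAM, CD31 and Ter119 were sorted into GFP+ cells, the Col6a1+ CAFs, and Tomato+ cells, the Col6a1- CAFs, with 3 libraries in each group. The Tomato+ group is therefore defined by the absence of recombination, and holds every lineage-negative cell that the Cre did not mark. Tumors of several mice were pooled for a sample, so the spread between libraries is a spread between pools.

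Histone genes fall into 2 kinds that differ in how their mRNA is made. The replication-dependent genes of the clusters supply the H1, H2A, H2B, H3 and H4 proteins needed when DNA is copied. Their mRNAs usually end in a short stem-loop that binds the protein SLBP, instead of a poly(A) tail. The replacement variants, such as H2A.Z (H2afz, H2afv), macroH2A (H2afy, H2afy2), H3.3 (H3f3a, H3f3b) and the linker histone H1.0 (H1f0), are made throughout the cell cycle from ordinary polyadenylated mRNAs. The libraries were primed on poly(A) tails and read the 3′ end of each transcript. Cluster mRNA that ends at the stem-loop is thus largely invisible to the assay, and a cluster gene is measured mainly through its polyadenylated transcripts. Each transcript gives about 1 tag whatever its length, so the normalized counts below were not divided by length.

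The stem-loop is shown first because an mRNA that ends there escapes poly(A) priming. In GENCODE M21 transcripts (GRCm38, the build of the files), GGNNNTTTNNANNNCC with 6 paired bases on each side of a 4-base loop was searched for on the coding strand after the stop codon. It was found in 42 of the 50 cluster genes with at least 30 bases there, and in 1 variant, H2afx, the gene of the DNA damage histone H2A.X. The 43 genes shared 7 distinct stem-loops. Capitals mark the loop in the 2 most frequent forms, the first in 24 genes of H1, H2A, H2B and H3 and the second in 7 H4 genes.
H1, H2A, H2B and H3 form: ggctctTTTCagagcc
H4 form: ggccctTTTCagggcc

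The next sequences give the 30 bases around the stem-loop for the 3 called cluster genes that have it, the highest H1 and H3 cluster genes and the only variant, again with the loop in capitals. The 16 bases of stem and loop lie at chr11:58949349-58949364 for Hist3h2ba, chr11:58955172-58955187 for Hist3h2a, chr13:23739512-23739527 for Hist1h1c and chr3:96247327-96247342 for Hist2h3c1, all on the plus strand. They lie at chr13:22040966-22040981 on the minus strand for Hist1h4i and at chr9:44335240-44335255 on the plus strand for H2afx.
Hist3h2ba: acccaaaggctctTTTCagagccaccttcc
Hist3h2a: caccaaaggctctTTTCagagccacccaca
Hist1h1c: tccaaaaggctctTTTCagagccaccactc
Hist2h3c1: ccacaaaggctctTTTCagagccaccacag
Hist1h4i: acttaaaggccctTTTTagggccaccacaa
H2afx: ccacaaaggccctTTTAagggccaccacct

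In these 6 genes the deposited gene model did not stop at the stem-loop. It ran on for 169 bases in Hist3h2ba, 330 in Hist1h4i, 822 in H2afx, 840 in Hist1h1c, 1162 in Hist2h3c1 and 1643 in Hist3h2a. Over the 68 cluster genes, 13 had a model that ran more than 100 bases past the stem-loop, and 29 had a model that ended within 100 bases of it. Another 5 had a longer 3′ end with no stem-loop found, among them Hist1h2bc and Hist2h2be. The remaining 21 had under 100 bases annotated after the stop codon and no match. The hexamer AATAAA, the usual polyadenylation signal, stood in the last 50 bases of a transcript in 10 of the 42 cluster genes with a stem-loop. The grouping by gene model was made after values of these genes had been seen and carries no test.

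The variants dominated what was measured. All 83 genes together took 0.149% to 0.191% of the normalized counts in the 3 Col6a1+ libraries and 0.270% to 0.344% in the 3 Col6a1- libraries. The 10 detected variants alone held 73.0% to 82.2% of the histone counts in Col6a1+ CAFs and 65.0% to 68.0% in Col6a1- CAFs. H2afz and H3f3b by themselves gave 42.7% to 52.0% of all histone counts in each library. The summed variant counts were 4674, 4472 and 3733 in Col6a1+ CAFs and 6579, 5758 and 7299 in Col6a1- CAFs. The summed cluster counts were 1015, 1587 and 1384 in Col6a1+ CAFs and 3091, 3099 and 3805 in Col6a1- CAFs. Both sums were lower in every Col6a1+ library than in any Col6a1- library. In bulk samples such as these, fewer cells of a type and less RNA per cell cannot be told apart.

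By histone type, nearly all H3 counts came from the H3.3 genes in this poly(A)-primed assay, which largely misses cluster mRNA that ends at the stem-loop, at 96.3% to 100% of H3 counts in Col6a1+ CAFs and 92.5% to 93.8% in Col6a1- CAFs. Variants gave 75.2% to 90.0% of H2A counts in Col6a1+ CAFs and 74.5% to 76.3% in Col6a1- CAFs, ranges that overlap. For H1 the variant share was 36.9% to 53.8% and 33.6% to 41.6%, which overlap as well. No variant outside the clusters belongs to H2B or H4 in this list, so those types rest on cluster genes alone.

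**Figure D1:**
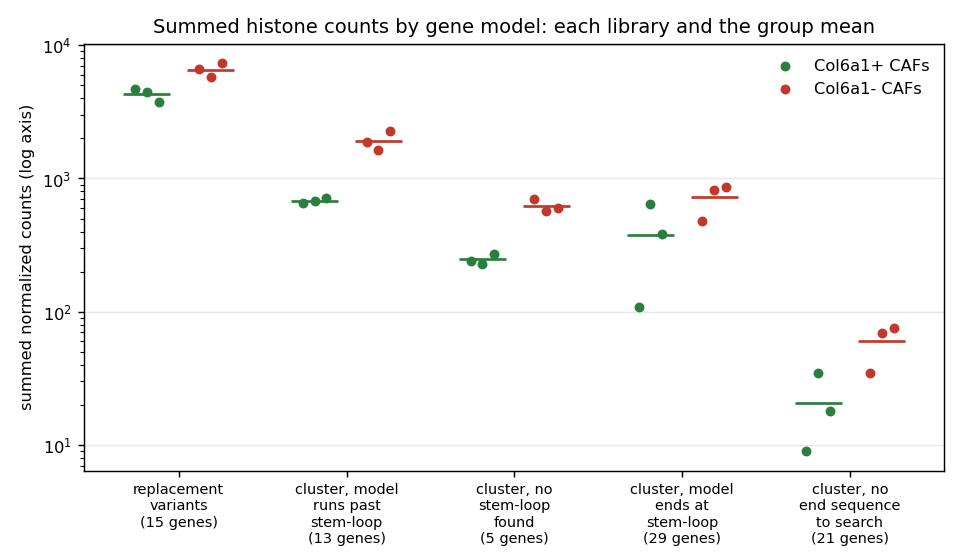
Summed normalized counts (log axis) of the 15 variants and of the cluster genes grouped by gene model, with a point for each library and a bar at the group mean. The 13 cluster genes whose model runs past the stem-loop sit at 655 to 708 in Col6a1+ CAFs and 1637 to 2260 in Col6a1- CAFs.

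Among cluster genes, those with a longer end in the deposited model carried much of the signal. The 13 genes with a model past the stem-loop summed to 655, 682 and 708 in Col6a1+ CAFs and to 1869, 1637 and 2260 in Col6a1- CAFs. The 5 with no stem-loop found summed to 242, 230 and 272 against 705, 567 and 604. In neither set did the groups overlap. The 29 genes whose model ends at the stem-loop gave 109, 640 and 386 against 482, 826 and 865, and there the groups overlapped. Some of these 29 have a longer end in GENCODE M21, with up to 4931 bases after the stop codon in Hist1h1d, 2058 in Hist1h2ac and 1209 in Hist1h1e. Reads past the deposited model may be missing from their sums, which was not tested. The 21 with hardly any annotated 3′ end gave 9, 35 and 18 against 35, 69 and 76 and touched at 35. Together Hist1h1c, Hist3h2a and Hist1h2bc gave 48.6% to 73.5% of all cluster counts in each library.

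In the fit across all 26402 genes with a normalized count in any library, 76 of the 83 members were tested. The other 7 stood at 0 in every library: Hist1h1t, Hist1h2aa, H1foo, H1fnt, H2afb1, H2afb2 and H2afb3, most of them known from germ cells. Of the 76, only 29 had a mean of at least 10. After Benjamini-Hochberg adjustment over all genes, 5 members were lower in Col6a1+ CAFs at an adjusted p under 0.05 (limma), 6.58% of those tested, where 1.96% of all genes tested were called lower. None was called higher, where 2.66% of all genes were. Of the 76, 24 had an unadjusted p under 0.05, and 16% of all genes did. The 5 were the cluster genes Hist3h2ba, Hist3h2a, Hist1h2bc and Hist1h4i and the variant H2afz.

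The fit above had no replicate term. Replicate numbers were read as pairs, on weak correlations, and a fit with the replicate as a block called no gene of the whole table. In that fit the 5 had adjusted p-values of 0.0612 to 0.115. With the block and a mean of at least 10, 9 members were called lower, the 5 among them at 0.00223 to 0.0304, where 6.44% of the 13515 genes of that fit were called lower. The calls also moved with single libraries. Without Col6a1+ replicate 1, 2 or 3, the members called lower numbered 4, 2 and 1. Without Col6a1- replicate 1, 2 or 3, they numbered 0, 1 and 0. Genes of the whole table called lower numbered 442, 218, 149, 1, 52 and 14 in these fits, in that order. With all libraries they numbered 517.

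Direction was more even than the calls. The log2 difference (Col6a1+ minus Col6a1-) was below 0 in 63 of the 76 members, above 0 in 12 and 0 in 1. This is 82.9%, where 58.8% of all genes tested were below 0. The median difference was -1.13 over the 66 cluster genes tested and -0.47 over the 10 variants, beside -0.27 over all genes tested. In 24 members every Col6a1+ library lay below every Col6a1- library, 31.6% of those tested, where 11.6% of all genes did so. In no member was the order the other way, where 7.91% of all genes tested had it. Of the 68 cluster genes, 55 share a run of at least 100 identical bases with another histone gene of their type. The members are therefore not all separate measurements, and these shares describe the list without a test. With the 5 cluster genes that were at 0 in all libraries of a group set to the limit that 3 counts per library allow, the cluster median was -1.0.

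A single library set many of the low values. Col6a1+ replicate 1 had 14530 genes with a count, where the others had 18770 to 20511, and 51 of the 66 detected cluster genes stood at 0 in it. Its depth was estimated at 3876718 reads, where the other libraries with an estimate had 2568312 to 4519185. Of the 47 cluster genes with a mean under 10, 91.5% were at 0 there, and so were 80.5% of all genes with such a mean. Its cluster genes with a count numbered 15, against 48 to 62 in the other 5 libraries. Without this library, 62 of 76 members were still below 0, and the cluster median was -0.92 beside -0.13 for all genes. In 28 members every remaining Col6a1+ library lay below every Col6a1- library, where 15.9% of all genes did so.

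**Figure D2:**
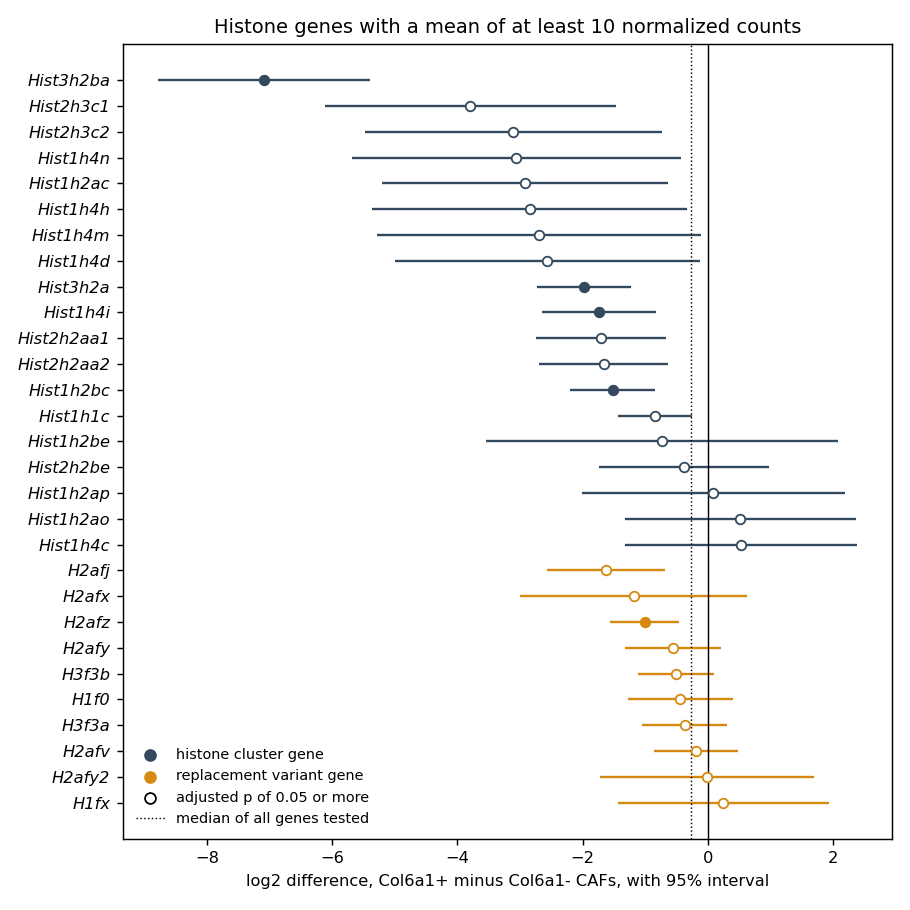
Log2 difference of normalized counts, Col6a1+ minus Col6a1- CAFs, with its 95% interval (limma) for the 29 histone genes with a mean of at least 10, filled where the adjusted p is under 0.05. All but 4 points lie left of 0, and the dotted line marks the median of all genes tested at -0.27.

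The Hist3 pair on chromosome 11 gave the clearest separation. Hist3h2ba (ENSMUSG00000056895, an H2B gene, chr11:58948920-58949533, plus strand, mm10) had 0, 1 and 0 normalized counts in Col6a1+ CAFs and 158, 145 and 216 in Col6a1- CAFs. It was near absent from every Col6a1+ library and present in every Col6a1- library. The sums were 1 and 519, a ratio of 519. Its Clopper-Pearson 95% interval of 92.7 to 20538 treats normalized counts as if they were reads and leaves out the spread between libraries. On the log2 scale the difference was -7.09 ± 0.76 (SE) with an adjusted p of 0.00128 (limma), and -6.92 to -7.42 with any library left out. With 0 or 1 count in a group its size depends on the pseudocount, and over all alternatives it ran from -6.92 to -9.58. Without Col6a1- replicate 1 or 3 the adjusted p was 0.0580 or 0.0501. No other gene of its type shared 100 identical bases with it.

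Hist3h2a (ENSMUSG00000078851, an H2A gene, chr11:58954685-58956830, plus strand) begins 5151 bases after Hist3h2ba ends. It stood at 109, 203 and 169 in Col6a1+ CAFs and at 695, 473 and 712 in Col6a1- CAFs, so the groups were well apart. The means were 160 ± 47.6 and 627 ± 133 (SD, n = 3 each), 3.91 times higher in Col6a1- CAFs. Its log2 difference was -1.98 ± 0.34 (SE), adjusted p = 0.00948 (limma), and leaving out a single library moved it between -1.73 and -2.17. Its adjusted p was 0.0570 without Col6a1+ replicate 3 and 0.103, 0.0615 and 0.116 without Col6a1- replicate 1, 2 and 3. Trim17, which overlaps Hist3h2a on the same strand, had at most 6 counts in any library. The pair gave 10.7% to 12.9% of cluster counts in Col6a1+ CAFs and 19.9% to 27.6% in Col6a1- CAFs.

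Since the pair differed together, the 250 bases before each start are given (RefSeq, GRCm38.p6, plus strand), with those of H2afz for comparison. Capitals mark CCAAT, the site of NF-Y, the TATA box core TATAAA and ATTTGCAT, the site of Oct1 (octamer), each searched on both strands, so that the reverse complement of each is in capitals too. The windows are chr11:58948661-58948910, chr11:58954435-58954684 and chr3:137864237-137864486. The RefSeq start of Hist3h2ba lies 9 bases before the start in the deposited table.
Hist3h2ba: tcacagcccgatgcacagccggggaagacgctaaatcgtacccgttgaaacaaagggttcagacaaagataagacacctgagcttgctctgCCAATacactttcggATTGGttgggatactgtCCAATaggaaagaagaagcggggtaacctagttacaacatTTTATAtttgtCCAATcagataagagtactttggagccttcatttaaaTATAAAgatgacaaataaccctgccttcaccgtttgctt
Hist3h2a: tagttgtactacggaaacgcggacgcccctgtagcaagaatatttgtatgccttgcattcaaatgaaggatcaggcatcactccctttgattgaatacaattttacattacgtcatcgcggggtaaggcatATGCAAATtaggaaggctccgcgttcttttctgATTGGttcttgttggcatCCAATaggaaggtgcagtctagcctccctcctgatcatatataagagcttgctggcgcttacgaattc
H2afz: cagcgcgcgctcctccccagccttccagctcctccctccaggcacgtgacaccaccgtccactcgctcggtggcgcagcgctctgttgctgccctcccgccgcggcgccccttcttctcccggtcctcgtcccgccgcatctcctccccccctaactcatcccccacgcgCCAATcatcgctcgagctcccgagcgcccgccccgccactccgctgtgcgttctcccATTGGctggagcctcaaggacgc

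Hist3h2ba held 4 CCAAT and 2 TATAAA matches, Hist3h2a 2 CCAAT matches and 1 octamer, and H2afz 2 CCAAT matches. Of the other called members, Hist1h4i held a TATAAA match 137 bases before its start but no CCAAT or octamer. Hist1h2bc had no promoter entry. A gene was counted if any of its promoter entries held the motif. CCAAT was present in 50 of 61 cluster genes (82.0%) and 8 of 14 variant genes, and in 37.5% of all 27025 genes with an entry. TATAAA was present in 29 of 61 (47.5%) and 1 of 14, beside 14.3% of all. The octamer stood in 14 of 61 (23.0%) and 1 of 14, beside 1.81% of all, and in 7 of the 16 H2B cluster genes, all 16 of which held CCAAT. A match is a string of letters and was not tested as a binding site, and 75 of the 83 members had an entry.

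The other H2B genes were led by Hist1h2bc (ENSMUSG00000018102, chr13:23684199-23692488, plus strand), whose deposited model spans 8290 bases. It had 149, 200 and 241 counts in Col6a1+ CAFs and 632, 499 and 548 in Col6a1- CAFs. The lowest Col6a1- library was above the highest Col6a1+ library by more than the range of either group, with means of 197 ± 46.1 and 560 ± 67.3 (SD). This was a log2 difference of -1.52 ± 0.30 (SE), adjusted p = 0.0186 (limma), and it kept that call only without Col6a1+ replicate 1 (0.0561 to 0.126 without any other library). It shares a run of 305 identical bases with Hist1h2bg, so reads from that stretch could be split between them. Hist2h2be, the third H2B gene by level, had 93, 22 and 25 against 53, 47 and 47, with Col6a1+ replicate 1 the highest of all (log2 difference -0.38, adjusted p = 0.733, limma). The other 15 H2B genes each had at most 23 counts in any library.

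**Figure D3:**
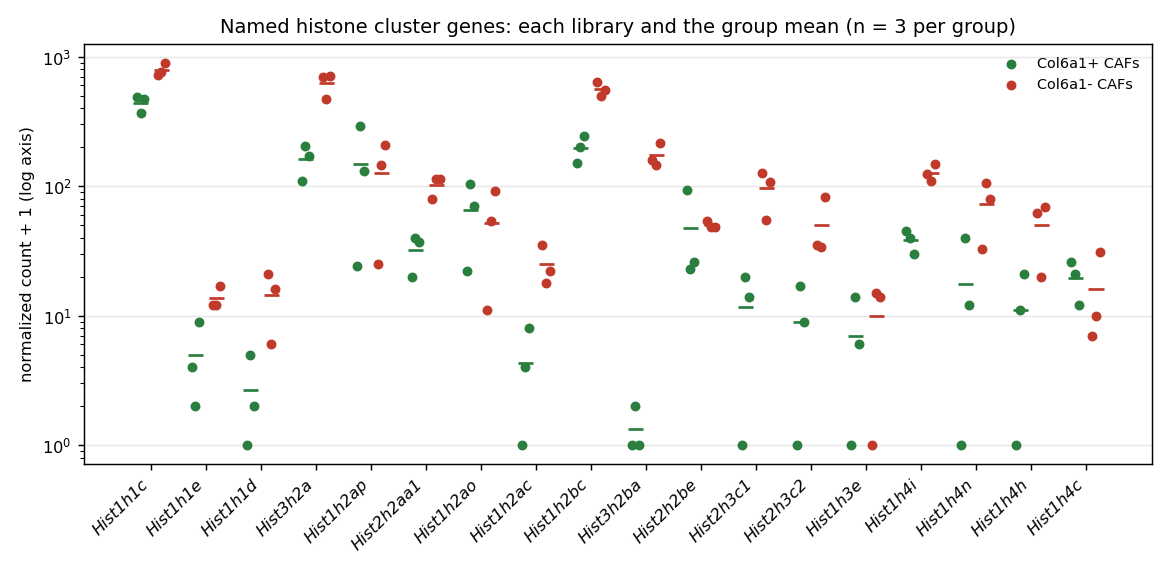
Normalized count plus 1 (log axis) of the 18 named cluster genes in each library, ordered by type and level, with a bar at the group mean. Hist3h2ba lies at 0 or 1 count in Col6a1+ CAFs and at 145 to 216 in Col6a1- CAFs, and several genes stand at 0 in Col6a1+ replicate 1 only.

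H4 genes were low, and Hist1h4i (ENSMUSG00000060639, chr13:22040636-22041362, minus strand) was the best measured. Its counts were 44, 39 and 29 in Col6a1+ CAFs and 123, 109 and 146 in Col6a1- CAFs. The groups did not overlap, with means of 37.3 ± 7.64 and 126 ± 18.7 (SD), 3.38 times higher in Col6a1- CAFs. The log2 difference was -1.74 ± 0.41 (SE), adjusted p = 0.0382 (limma), and it fell short of the threshold when a library other than Col6a1+ replicate 1 was left out (0.103 to 0.171). Hist1h4n had 0, 39 and 11 against 32, 105 and 78, and Hist1h4h 0, 10 and 20 against 61, 19 and 68. In both the groups overlapped and the adjusted p was 0.215 and 0.233 (limma). Hist1h4n was lower in the Col6a1+ library of each replicate number, and with the replicate block and a mean of at least 10 its adjusted p was 0.0480 (0.170 with that filter alone). Hist1h4c had 25, 20 and 11 against 6, 9 and 30 and leaned the other way (log2 difference 0.53, adjusted p = 0.733, limma). Of the 13 H4 genes 12 were below 0. H4 coding sequences are near copies of each other, for example 366 identical bases in Hist1h4n and Hist1h4m and 161 in Hist1h4i and Hist1h4h, so single H4 genes are uncertain where reads fall in the coding part.

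Of the other H2A genes, a matched pair of copies on chromosome 3 was lower without a call. Hist2h2aa1 (chr3:96245497-96246082) had 19, 39 and 36 counts in Col6a1+ CAFs and 78, 113 and 113 in Col6a1- CAFs, and the groups did not overlap. Its log2 difference was -1.71 ± 0.47 (SE), adjusted p = 0.0734 (limma), and 0.0379 with the block and a mean of at least 10. Hist2h2aa2 gave 18, 31 and 31 against 79, 85 and 89, but the 2 genes share 528 identical bases and cannot count as separate measurements. Hist1h2ac had 0, 3 and 7 against 34, 17 and 21 (adjusted p = 0.165, limma).

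Another pair of near copies, Hist1h2ap and Hist1h2ao (452 identical bases), ran across the groups. Hist1h2ap had 23, 292 and 129 counts in Col6a1+ CAFs and 24, 145 and 208 in Col6a1- CAFs. Hist1h2ao had 21, 103 and 69 against 10, 53 and 91. In both genes replicate 1 of each group was low and the groups overlapped fully, with log2 differences of 0.09 and 0.52 and adjusted p-values of 0.978 and 0.737 (limma). The sign of both turned when certain single libraries were left out.

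H3 cluster genes were barely detected in Col6a1+ CAFs, with 0, 74 and 45 counts over all 12 genes against 196, 159 and 243 in Col6a1- CAFs. Hist2h3c1 (chr3:96246685-96248504, plus strand) had 0, 19 and 13 against 126, 54 and 107, and Hist2h3c2 had 0, 16 and 8 against 34, 33 and 81. In both genes the groups did not overlap, with log2 differences of -3.80 ± 1.05 and -3.11 ± 1.07 (SE) and adjusted p-values of 0.0731 and 0.156 (limma), or 0.0484 and 0.0705 with the block and a mean of at least 10. The 2 genes share 666 identical bases. A non-coding transcript on the same strand, Gm20634, overlaps Hist2h3c1 and Hist2h2aa1 and had 0, 18 and 9 against 123, 51 and 101, nearly the values of Hist2h3c1, so these counts cannot be assigned to a single gene. Hist1h3e, the third by level, had 0, 13 and 5 against 0, 14 and 13 (adjusted p = 0.876, limma).

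The linker histones of the clusters rested on Hist1h1c, which codes for H1.2 (ENSMUSG00000036181, chr13:23738808-23740367, plus strand). It had 488, 369 and 467 counts in Col6a1+ CAFs and 722, 760 and 891 in Col6a1- CAFs, the highest of any cluster gene. The groups did not overlap, with means of 441 ± 63.5 and 791 ± 88.7 (SD), but the log2 difference of -0.85 ± 0.27 (SE) missed the threshold (adjusted p = 0.121, limma, and 0.0534 to 0.297 over the alternatives). Hist1h1d had 0, 4 and 1 against 20, 5 and 15, and Hist1h1e 3, 1 and 8 against 11, 11 and 16. Both were lower in every Col6a1+ library, at adjusted p-values of 0.249 and 0.434 (limma).

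**Figure D4:**
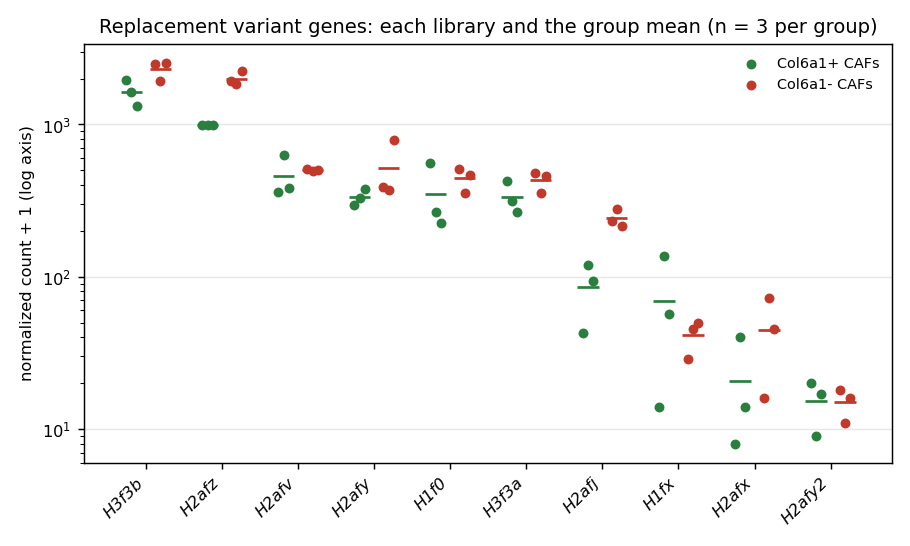
Normalized count plus 1 (log axis) of the 10 detected replacement variants in each library, ordered by level, with a bar at the group mean. H2afz lies at 985 to 997 in Col6a1+ CAFs and 1843 to 2234 in Col6a1- CAFs. The groups do not overlap for H2afj either, while they overlap for every other variant shown.

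H2afz was the only variant that passed the test. It codes for H2A.Z, which replaces H2A at promoters and other regulatory sites (ENSMUSG00000037894, chr3:137864487-137866922, plus strand). It had 994, 997 and 985 counts in Col6a1+ CAFs and 1923, 1843 and 2234 in Col6a1- CAFs. The Col6a1+ libraries were almost equal, at 992 ± 6.24 (SD), and all lay below the Col6a1- libraries at 2000 ± 207 (SD), a ratio of 2.02. The log2 difference was -1.01 ± 0.25 (SE), adjusted p = 0.0474 (limma), close to the threshold, and it was 0.0721 to 0.157 with any library left out. H2afv, which codes for the other H2A.Z protein, had 358, 633 and 379 against 508, 496 and 502. These overlapped, with a log2 difference of -0.19 (95% interval -0.86 to 0.49, adjusted p = 0.741, limma). Whether H2afz and H2afv differed from each other in this was not tested.

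H2afj, which codes for the H2A variant H2A.J, stood just outside the call. It had 42, 118 and 92 counts against 230, 277 and 215, with groups that did not overlap and a mean 2.87 times higher in Col6a1- CAFs. The log2 difference was -1.62 ± 0.43 (SE), adjusted p = 0.0598 (limma), and it passed the threshold in 6 of 15 alternatives, among them the blocked fit of genes averaging 10 or more (0.0251). H2afx had 7, 39 and 13 against 15, 72 and 44, with overlapping groups (adjusted p = 0.542, limma). The macroH2A genes, whose products are linked to silent chromatin, also overlapped: H2afy had 293, 327 and 375 against 389, 372 and 785, and H2afy2 had 19, 8 and 16 against 17, 10 and 15 (adjusted p = 0.494 and 1, limma).

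Neither H3.3 gene passed the test. H3f3b, the highest of all members, had 1962, 1635 and 1327 counts against 2481, 1940 and 2532, so that Col6a1+ replicate 1 lay just above the lowest Col6a1- library. Its log2 difference was -0.51 (95% interval -1.11 to 0.10, adjusted p = 0.421, limma). H3f3a had 427, 313 and 265 against 479, 353 and 455 (log2 difference -0.37, adjusted p = 0.603, limma). Its value is uncertain, since 2 processed pseudogenes that share up to 155 identical bases with it held similar counts, H3f3a-ps2 with 574, 790 and 623 against 860, 660 and 755 and H3f3a-ps1 with 355, 304 and 186 against 482, 275 and 459. The linker variants overlapped too. H1f0 had 559, 266 and 225 against 509, 351 and 468, and H1fx 13, 136 and 56 against 28, 44 and 49 (adjusted p = 0.605 and 0.873, limma).

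Histone supply was set beside the genes that use or process it. Of 12 genes of histone transcription and 3′ end processing, none was called in either direction (limma), and 0 had an unadjusted p under 0.05. The list median was -0.33, beside -0.27 over all genes tested, of which 16% had an unadjusted p under 0.05 (limma). Slbp, the stem-loop binding protein, had 104, 58 and 40 counts against 40, 48 and 55, and Npat, the activator of cluster transcription, 50, 13 and 31 against 15, 21 and 20. In both the groups overlapped. Srrt, Cpsf2, Sympk and Cstf2 were the highest of the list, with log2 differences of -0.23, -0.48, -2.42 and -0.54 and adjusted p-values of 0.802, 0.462, 0.534 and 0.607 (limma). The value of Sympk rests on Col6a1+ replicate 1, where it was at 0.

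Of 26 histone chaperones and exchange factors, 0 were called and the median was -0.27, with 3 at an unadjusted p under 0.05. Over all genes tested the median was also -0.27, and 16% had an unadjusted p under 0.05 (limma). Rbbp4, Nap1l1, Ssrp1 and Ubn1 were the highest, and Nap1l1, which carries H2A and H2B, had 348, 374 and 430 against 1064, 508 and 686 (log2 difference -0.91, adjusted p = 0.170, limma). The log2 difference was 0.21 for Rbbp4, -0.24 for Ssrp1 and 0.03 for Ubn1, with adjusted p-values of 0.688, 0.744 and 0.977 (limma). Anp32e, a chaperone that removes H2A.Z, had 267, 161 and 180 against 220, 192 and 184.

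Lists of S phase and mitosis genes were read in the same way. For all genes tested the median was -0.27 and 16% had an unadjusted p under 0.05 (limma). Of 22 S phase genes 0 were called, with a median of -0.32 and 3 at an unadjusted p under 0.05. Pcna, a clamp of the replication fork, had 272, 270 and 365 counts against 291, 233 and 282 (adjusted p = 0.776, limma). Tyms and Mcm3 were high in a single library, Col6a1- replicate 3, with 1510 and 606 counts against at most 54 and 126 elsewhere (adjusted p = 0.519 and 0.195, limma), and Tipin had a log2 difference of 1.11 (adjusted p = 0.208, limma). Of 18 mitosis genes 0 were called, with a median of -0.57 and 3 at an unadjusted p under 0.05. Birc5 had 95, 127 and 87 against 147, 374 and 236 and Top2a 108, 113 and 105 against 166, 222 and 162. Both were lower in every Col6a1+ library, at adjusted p-values of 0.143 and 0.307 (limma), and Birc5 was called with the replicate block and a mean of at least 10 (adjusted p = 0.0484). Cenpa, the centromeric H3 variant that the name rule leaves out, had 204, 106 and 222 against 65, 75 and 57, and was higher in every Col6a1+ library (adjusted p = 0.0956, limma). Cdk1 had 358, 105 and 99 against 122, 170 and 92 (adjusted p = 0.734, limma).

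**Figure D5:**
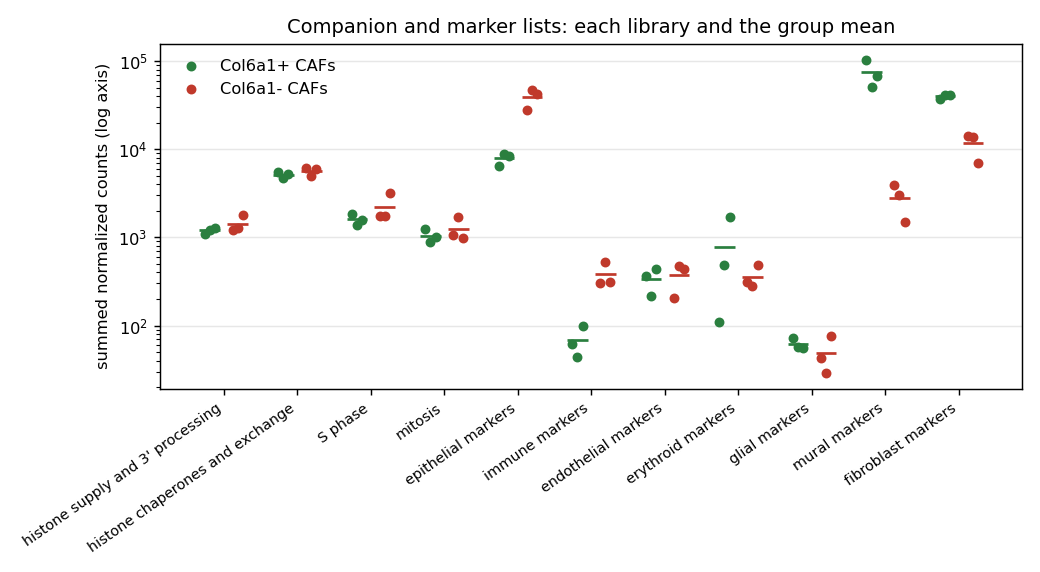
Summed normalized counts (log axis) of each companion and marker list in each library, with a bar at the group mean. Epithelial markers sum to 6533 to 8944 in Col6a1+ CAFs and 28145 to 46494 in Col6a1- CAFs, while the S phase and mitosis lists overlap between the groups.

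The cell type markers differed widely between the groups. All 9 mural genes were called higher in Col6a1+ CAFs (limma), summing to 51384 to 104067 against 1486 to 3924, and 4 of 7 fibroblast genes were called higher, the list summing to 37600 to 41374 against 6945 to 14082. Epithelial markers moved the same way as the histone genes, although EpCAM+ cells had been excluded in the sort. Of 13 epithelial genes 9 were called lower in Col6a1+ CAFs, and the list summed to 6533 to 8944 against 28145 to 46494, with none at 0 in any library. Epcam itself had 1074, 884 and 615 counts against 3107, 4129 and 3730 (adjusted p = 0.00330, limma). Their part in the histone differences was not tested. Immune markers summed to 44 to 98 against 306 to 525, with S100a8 alone called lower, Ptprc (the gene of CD45) at 8 or fewer counts in every library and Ms4a1 at 0 in all. Of 8 endothelial genes Tie1 was called higher (limma). The other 7 had log2 differences below 0, none of them called, and the list median was -1.13. No erythroid or glial gene was called (limma, with 0 and 1 at an unadjusted p under 0.05).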

How the data were processed

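RNA of the sorted cells was made into 3′ mRNA libraries (QuantSeq, Ion Proton), which the authors aligned to mm10 with TopHat2 and, for unmapped reads, Bowtie2, counted per gene and normalized with DESeq in metaseqR. The deposited table gives log2 values, log2(normalized count + 1). Raising 2 to each value and subtracting 1 gave whole numbers (within 1e-06) in 100% of values. These normalized counts summed to 3039152 to 3425249 per library, about 2568312 to 4519185 reads in the 5 libraries where the step between values could be resolved. The columns holding the authors' p-values, adjusted p-values, fold changes and group means were not used, nor were 6 per-library columns of another scaling.

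The log2 values of all 26402 genes with at least 1 count in total were compared with limma 3.58.1 (lmFit, eBayes with trend) in R 4.3.3, with Benjamini-Hochberg adjustment over all of them and a threshold of 0.05. A fold change on the log2(value + 1) scale understates that of low genes. Ratios of group means are of normalized counts. Labels do not say that libraries came from separate animals, so p-values measure the spread between these pools. Deviations of same-numbered libraries from their group means correlated at 0.245, 0.125 and 0.144 over 13515 genes, and those of different numbers at -0.245 to 0.150. All same-number values were above 0.1, so the numbers were read as pairs, although 1 different-number value was as high. The pairs entered only the fits with the replicate block, so p-values of the main fit are unpaired. The unblocked fit was tested only on simulated counts with large changes in well-measured genes. That does not cover changes in low genes, paired libraries or a library with many zeros. Alternatives were the filter, pseudocount, scaling, voom, array weights, the replicate block and each library left out.

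Members and lists were chosen with earlier results of these data known. Named genes were each variant with a mean of at least 10, the 3 highest cluster genes per type, every member called, the 5 largest differences in each direction among means of at least 10, and, per list, called genes and up to 4 of the highest others; Hist2h2aa2, Npat, Slbp, Anp32e, Ptprc and Ms4a1 were named after their values were seen. Stem-loops and shared runs came from GENCODE M21, and overlaps from the spans in the deposited table. In M21, 81 members were found, and only 58 of them had the span of the deposited table. Of all 49289 shared genes, 91.5% had it. Promoters came from RefSeq (GRCm38.p6). Python 3.11.15, pandas 2.3.3 and SciPy 1.17.1 were used.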

Additional observations from a re-analysis of the deposited data

How the results depend on the processing

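Beside the 5 members called lower in Col6a1+ CAFs, none was called higher under any of the 15 alternatives. The members called lower and the genes of the whole table called higher and lower (703 and 517 as reported) changed as follows. With a mean of at least 10 they were 8, 815 and 608, and with at least 10 in every library 7, 696 and 458. With limma-voom they were 10, 804 and 1006, with array weights 9, 1031 and 969, with a pseudocount of 0.1 4, 561 and 336, and with library size alone 6, 716 and 628. With no filter they were 1, 21 and 7. With the replicate block for the paired numbers they were 0, 0 and 0 (smallest adjusted p 0.0612, limma, with 4418 genes at an unadjusted p under 0.05), and with the block and a mean of at least 10 they were 9, 981 and 871. The cause of these shifts was not tested. With a library left out they ranged over 0 to 4, 11 to 453 and 1 to 442, lowest without Col6a1- replicate 1.

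Of members tested, 25 of 29 were below 0 with a mean of at least 10, with or without the block, and 14 of 17 with at least 10 in every library, where fewer genes are tested. The range was 59 to 69 with a library left out. The cluster median (-1.13) was -2.01 with a pseudocount of 0.1, -1.74 with a mean of at least 10, with or without the block, and -0.92 to -1.63 with a library left out. The variant median (-0.47) was -0.19 with no filter, which adds genes at 0, and -0.29 to -0.61 with a library left out. The median of all genes tested lay between -0.34 and 0 over all alternatives.

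Of the 28 named members, 5 changed sign somewhere, none of them called. Hist1h3e (-0.44) was 0.10 with array weights. With a library left out, Hist1h3e ranged from -1.73 to 0.62, H1fx from -0.51 to 1.13, H2afy2 from -0.25 to 0.33, Hist1h2ao from -0.38 to 1.17 and Hist1h2ap from -0.85 to 1.09. Of the 66 cluster genes tested, 47 had a mean under 10, and such low counts limit what the fit can show for them.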
